A study of Rattus norvegicus with 4 samples.

Results

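The transcripts described here are those of 10 RNA-binding proteins that regulate alternative splicing in heart muscle: Rbm20, Rbm24, Rbm38, Celf1, Celf2, Mbnl1, Mbnl2, Rbfox1, Rbfox2 and Ptbp1. They were taken by gene name from 32883 genes in the deposited table. Each name belonged to 1 gene identifier, and all 10 were among the 15257 genes with enough reads to be tested. Expression was measured by strand-specific RNA-seq, after depletion of ribosomal RNA, in ventricular cardiomyocytes of Sprague-Dawley rats at postnatal day 2. These are primary cultures, pre-plated to remove other cell types and kept in medium with fetal bovine serum, so every group carried serum. Cells received 20 µM phenylephrine (PE), an agonist of alpha-1 adrenergic receptors used to induce hypertrophic growth, for 24 h (2 libraries), or were left untreated (2 libraries). The labels do not say that libraries came from separate cultures, so p-values measure the spread between these samples only, which may be technical.

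Alternative splicing factors bind short motifs in pre-mRNA and promote or prevent the use of nearby exons. In heart, RBM20 represses exons of titin and of calcium-handling genes, and RBM24 is a muscle-enriched factor that promotes the inclusion of muscle exons. MBNL proteins accumulate and CELF proteins decline as the heart matures after birth, and both families act, often in opposition, on an overlapping set of exons. RBFOX proteins enhance or repress exons according to the side on which they bind, and PTBP1 represses many exons that are included in differentiated muscle. The values below are gene totals. They show how much transcript of each regulator was present, and not which exons were used or how much protein was made.

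Library totals ranged from 45637881 to 56948370 counts. Transcripts of the mitochondrial genome took 6.19% and 11.7% of counts in control replicates 1 and 2, and 4.61% and 4.76% in the PE libraries. The treatment marker Nppa, which encodes atrial natriuretic peptide, stood at 172 CPM (counts scaled to a common library size) in both controls, and at 3565 and 3249.8 CPM with PE. The corresponding values of Nppb, the second natriuretic peptide gene, were 434 and 465 CPM against 2219 and 1887 CPM.

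None of the 10 regulators changed with PE at an adjusted p under 0.05 in edgeR's quasi-likelihood test, against 15.7% of all tested genes (7.39% higher and 8.3% lower). At an unadjusted p under 0.05 there were 3 (Rbm24, Rbm38 and Mbnl1), or 3 of 10 beside 28.8% of all tested genes. DESeq2 called none of the regulators and 17% of the genes it tested. In the authors' deposited table the adjusted p ran from 0.0966 for Mbnl1 to 0.977 for Ptbp1, where 16.8% of genes with an adjusted p were under 0.05. Log2 fold changes, PE over control, lay between -0.45 for Rbm38 and 0.35 for Mbnl2, with 5 positive and 5 negative. Their median was 0.03, beside -0.01 over all tested genes, and the median of their absolute values was 0.26, beside 0.30.

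A missed threshold does not show equal levels, so the interval of each difference matters. The 95% interval of the log2 fold change lay inside a 2-fold change in either direction for all 10 regulators, against 62.8% of all tested genes. Intervals narrow with abundance, and 9 of the 10 had a mean log2 CPM of at least 5. In that range of abundance 84.6% of tested genes had such an interval and 15.8% changed. The widest reach downward was that of Rbm38, whose interval allowed 0.56 times the control level, and the widest upward that of Mbnl2, at 1.74 times.

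**Figure D1:**
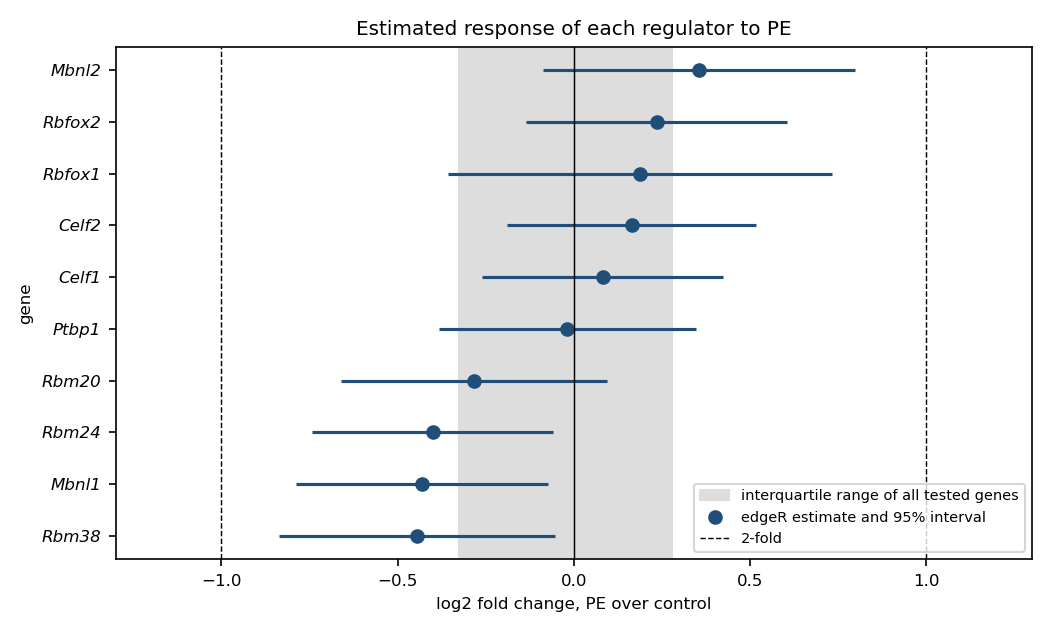
Estimated log2 fold change (PE over control, horizontal axis) with its 95% interval for each regulator, ordered by estimate. The grey band holds the interquartile range of all tested genes (-0.33 to 0.28) and dashed lines mark 2-fold. Every interval stays between the dashed lines, and those of Rbm24, Rbm38 and Mbnl1 lie wholly below 0 before adjustment.

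The CPM values of the groups did not overlap for 8 of the 10 regulators, against 56.7% of all tested genes. PE was lower for Rbm20, Rbm24, Rbm38 and Mbnl1 (4 of 10, beside 28.1%) and higher for Celf1, Celf2, Mbnl2 and Rbfox2 (4 of 10, beside 28.5%). With 2 libraries in each group such separation is frequent, and the gap between groups was often no larger than the gap between replicates.

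**Figure D2:**
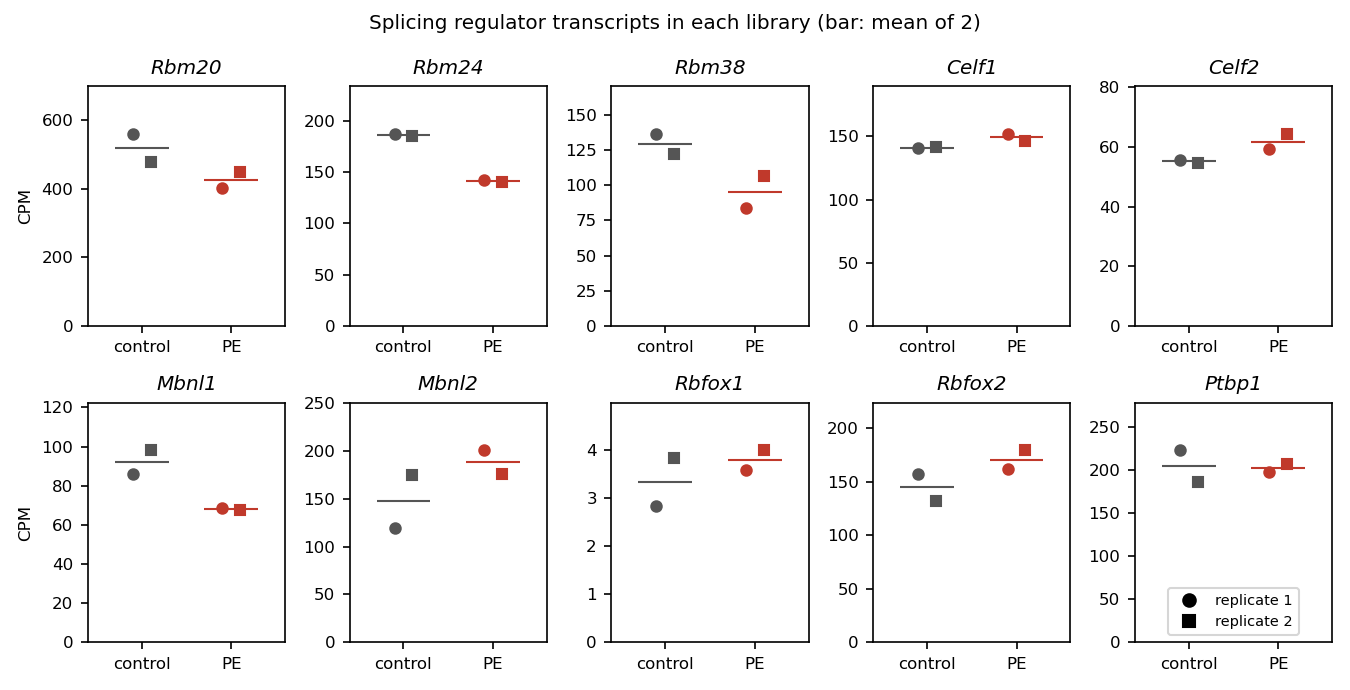
CPM (vertical axis, from 0, scaled for each gene) of each regulator in the control and PE libraries. Each point is a library, circles for replicate 1 and squares for replicate 2, and each bar is the mean of 2. The replicates of Rbm24 almost coincide within each group, while the control replicates of Mbnl2 stand 119.7 and 174 CPM.

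Rbm20 (ENSRNOG00000014705), the repressor of titin exons that is mutated in a form of dilated cardiomyopathy, was measured from 21241 to 30061 counts per library. It stood at 560.1 and 477 CPM in control replicates 1 and 2, and at 403 and 450.0 CPM in PE replicates 1 and 2. Both PE libraries were below both controls, but the lower control and the higher PE library were closer to each other than either pair of replicates. Mean levels were 519 ± 58.8 CPM and 426 ± 33.4 CPM (SD, n = 2), a log2 fold change of -0.28 ± 0.17 (SE, adjusted p = 0.316). Without control replicate 2 it was at -0.39 and passed (adjusted p = 0.0183), and without control replicate 1 it was at -0.16 (adjusted p = 0.437).

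Rbm24 and Rbm38 are paralogs with 1 RNA recognition motif each. Rbm24 (ENSRNOG00000046547), which is needed for sarcomere assembly in the developing heart, stood at 187 and 185 CPM in the controls and at 142 and 139.9 CPM with PE. The replicates of each group differed by less than 2 CPM, and the groups were clearly apart. The means were 186 ± 1.28 CPM and 141 ± 1.32 CPM, or 0.757 times the control level (95% interval 0.598 to 0.959). On the log2 scale this was -0.40 ± 0.15, and it did not pass (adjusted p = 0.110 in edgeR and 0.102 in DESeq2). Of the 10 regulators, Rbm24 alone passed both without control replicate 1 (-0.39, adjusted p = 0.0292) and without control replicate 2 (-0.41, adjusted p = 0.0193).

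Rbm38 (ENSRNOG00000006420), which also stabilises or destabilises mRNAs of cell cycle regulators, stood at 137 and 122 CPM in the controls and at 83.7 and 106 CPM with PE. Here the PE replicates were further apart than the controls. The log2 fold change was -0.45 ± 0.18 (adjusted p = 0.121), the most negative of the set. It ranged from -0.62 without PE replicate 2 to -0.28 without PE replicate 1, neither of which passed, and it passed without control replicate 2 (-0.52, adjusted p = 0.00233).

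Celf1 (ENSRNOG00000010379) and Celf2 (ENSRNOG00000023661) encode factors that favour fetal splicing patterns, and CELF1 also promotes the decay of mRNAs with GU-rich elements. Celf1 stood at 141 and 142 CPM in the controls and at 152 and 147 CPM with PE. Celf2 stood at 55.6 and 54.7 CPM in the controls and at 59.3 and 64.3 CPM with PE. For both genes the groups did not overlap and the PE means were only slightly higher. Log2 fold changes were 0.08 ± 0.15 for Celf1 and 0.16 ± 0.16 for Celf2 (adjusted p = 0.779 and 0.555). The interval of Celf1 reached from 0.835 to 1.34 times the control level and that of Celf2 from 0.877 to 1.43 times. Neither passed in any fit with 1 library left out.

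Mbnl1 and Mbnl2 encode the muscleblind proteins, which are sequestered by expanded CUG repeats in myotonic dystrophy, and their estimates had opposite signs. Mbnl1 (ENSRNOG00000014076) stood at 85.8 and 98.0 CPM in the controls and at 68.6 and 67.7 CPM with PE. The PE replicates were nearly equal and both lay below the controls. Its log2 fold change was -0.43 ± 0.16, or 0.742 times the control level (95% interval 0.579 to 0.951, adjusted p = 0.103). Without control replicate 1 it was at -0.52 and passed (adjusted p = 0.00400), and without control replicate 2 it was at -0.33 (adjusted p = 0.0873).

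Mbnl2 (ENSRNOG00000010737) stood at 119.7 and 174 CPM in the controls and at 200.2 and 176 CPM with PE. Control replicate 2 and PE replicate 2 were at almost the same level, and the low control replicate 1 set the size of the difference. The log2 fold change was 0.35 ± 0.20 (adjusted p = 0.280). It was 0.12 without control replicate 1 (adjusted p = 0.604) and 0.65 without control replicate 2, where it passed (adjusted p = 0.000115).

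Rbfox1 (ENSRNOG00000002827) had the fewest reads of the set, with 152 and 174 counts in the controls and 201 and 188 with PE, or 2.83, 3.82, 3.58 and 3.98 CPM. Its groups overlapped. The log2 fold change was 0.19 ± 0.24 (adjusted p = 0.671), and it was -0.01 without control replicate 1. Rbfox2 (ENSRNOG00000004688), whose protein recognises the same motif, stood at 157 and 133 CPM in the controls and at 162 and 179 CPM with PE. Control replicate 1 and PE replicate 1 were nearly level. Its log2 fold change was 0.23 ± 0.17 (adjusted p = 0.402), and it narrowly passed without control replicate 1 (0.37, adjusted p = 0.0465).

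Ptbp1 (ENSRNOG00000010448), the polypyrimidine tract-binding repressor, stood at 222 and 186 CPM in the controls and at 197 and 206 CPM with PE. Both PE libraries fell between the controls. The log2 fold change was -0.02 ± 0.16 (adjusted p = 0.960), the smallest of the set, and its interval reached from 0.766 to 1.27 times the control level. Its sign changed without control replicate 1 (0.12) or PE replicate 1 (0.02). RefSeq lists 6 pseudogenes named after Ptbp1 in the assembly GRCr8, so reads shared with such copies make its level uncertain.

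Which regulators passed thus depended on which control library entered. Without control replicate 1, 3 of the 10 passed (Rbm24, Mbnl1 and Rbfox2), and without control replicate 2, 4 passed (Rbm20, Rbm24, Rbm38 and Mbnl2), where 30.1% of tested genes passed in each fit. Without PE replicate 1 or PE replicate 2 none passed, against 7.64% and 7.98% of tested genes. With 1 control left, the spread came from the PE pair alone, which differed less than the control pair. The median absolute log2 gap between replicates over all tested genes was 0.30 for the controls and 0.16 for PE.

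**Figure D3:**
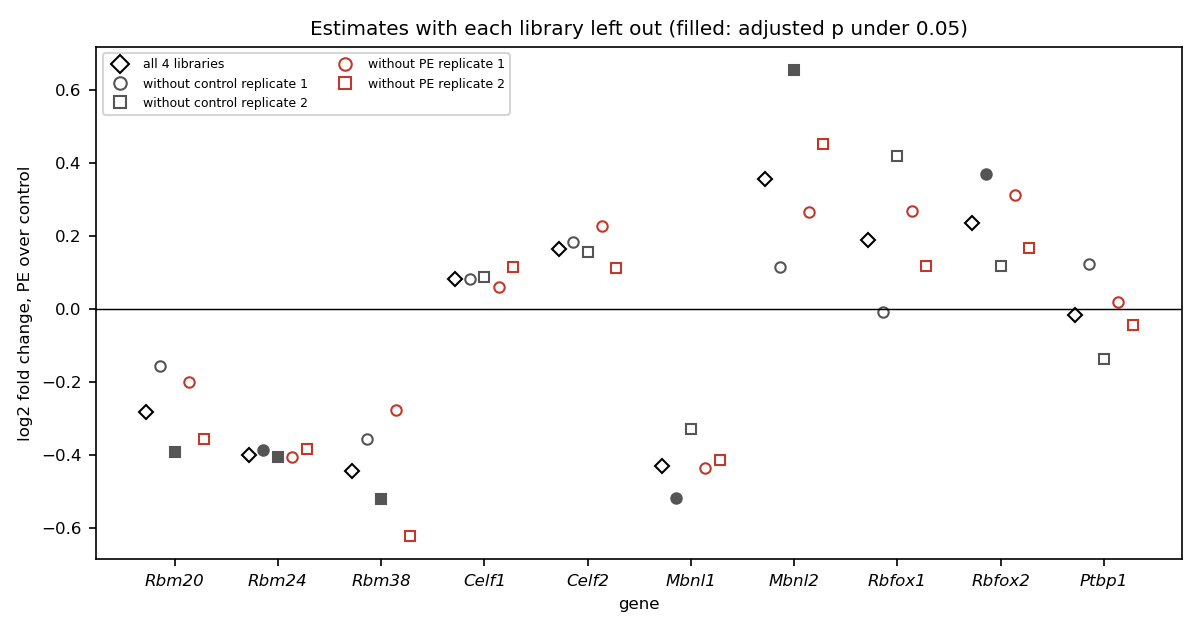
Log2 fold change (PE over control, vertical axis) of each regulator with all 4 libraries (diamonds) and with each library left out in turn. Filled symbols passed an adjusted p of 0.05. The estimates of Rbm24 stay between -0.41 and -0.38, while those of Mbnl2 spread from 0.12 to 0.65.

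These proteins can act on shared exons, so ratios of their counts within a library were compared for 6 pairs. Such ratios need no scaling between libraries. They do not compare transcript numbers, since gene length was not taken into account. With 2 libraries against 2, the exact two-sided permutation test cannot give a p below 0.333, so no ratio could pass. The counts of Mbnl1 per count of Mbnl2 were 0.717 and 0.562 in the controls and 0.343 and 0.385 with PE. Both PE ratios lay below both controls, with a log2 difference of -0.80 (exact p = 0.333). The gap between groups exceeded those within groups, which were 0.35 for the controls and 0.17 for PE. With 1 library left out at a time the difference ran from -0.98 to -0.63.

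Counts of Celf1 per count of Mbnl1, a pair known to act in opposition on many exons, were 1.64 and 1.44 in the controls and 2.21 and 2.16 with PE. The log2 difference was 0.51 (exact p = 0.333, between 0.42 and 0.60 with 1 library left out), and both PE ratios were above both controls. In the other 4 pairs the groups overlapped. The log2 differences were -0.04 for Rbfox1 to Rbfox2, -0.08 for Celf1 to Celf2, 0.05 for Rbm24 to Rbm38 and -0.12 for Rbm24 to Rbm20. Exact p was 1 for the Rbfox1 and the Rbm38 pair and 0.667 for the others, and every Benjamini-Hochberg adjusted value over the 6 pairs was 1. Both pairs that separated the groups contain Mbnl1, which is in none of the other 4. A separation of 2 libraries from 2 has an exact p of 0.333, so some of 6 pairs can separate without an effect of PE. No result about Mbnl1 follows from this count.

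**Figure D4:**
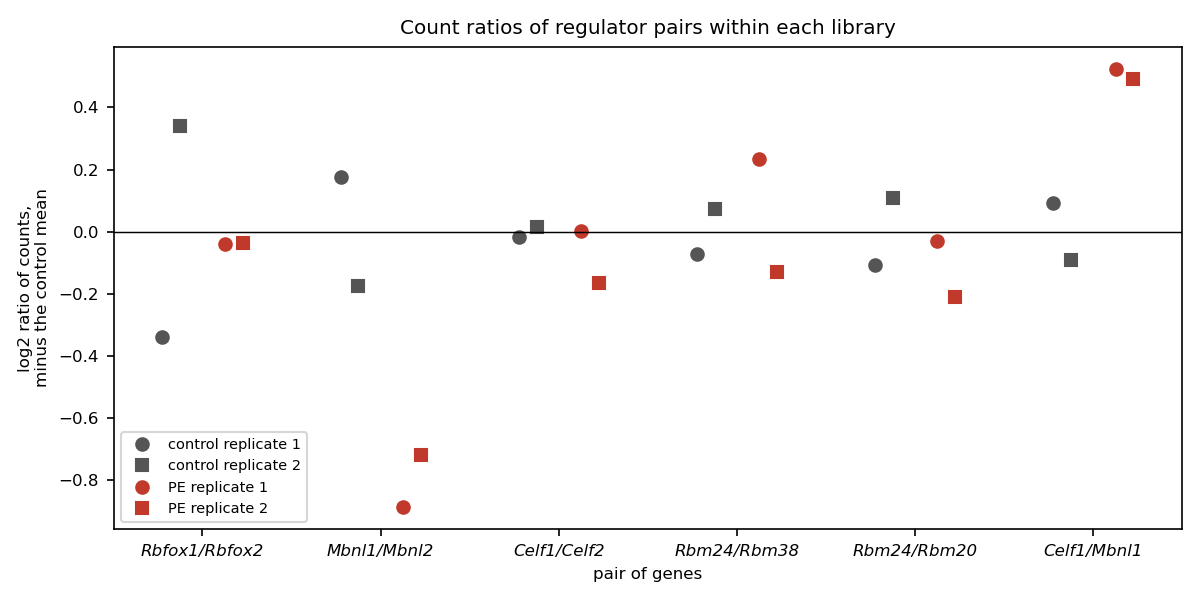
Log2 ratio of counts of 6 pairs of regulators in each library, less the mean of the 2 controls (vertical axis). Points are libraries, grey for control and red for PE. For Mbnl1/Mbnl2 the PE libraries lie below both controls and for Celf1/Mbnl1 above both. In the other pairs they overlap.

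Of 8 paralogs of these regulators, 3 (Celf3, Celf6 and Rbfox3) had too few reads to be tested. Of the other 5, 1 changed (20%, beside 15.7% of all tested genes). This was Mbnl3, the third muscleblind gene, which is known for its expression in proliferating muscle precursors. It stood at 4.96 and 5.13 CPM in the controls and at 1.98 and 1.57 CPM with PE. Both PE libraries were below both controls, and Mbnl3 fell by 1.50 ± 0.24 on the log2 scale (adjusted p = 0.00223). These levels rest on 266 and 234 counts against 111 and 74. Whether the response of Mbnl3 differs from those of Mbnl1 and Mbnl2 was not tested.

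Other splicing genes were examined by class. None of the 15 SR and SR-related proteins, many of which bind exonic enhancers, passed in edgeR, at an unadjusted p under 0.05 or in DESeq2 (median log2 fold change 0.03). The most abundant, Srrm2 and Srrm1, were at -0.18 ± 0.17 and -0.13 ± 0.16. Of the 19 tested hnRNP proteins, which often repress exons, none passed in edgeR or DESeq2 and 1 had an unadjusted p under 0.05 (median -0.08). Hnrnpk was at 0.32 ± 0.16 and Hnrnpu at -0.32 ± 0.23. Several hnRNP genes had uneven controls, among them Hnrnpa3 (111 and 247 CPM) and Hnrnpa1 (102 and 192 CPM). In others, such as Hnrnpl (278 and 212 CPM), control replicate 1 was the higher. Such spread widens the intervals, so a missed threshold does not show equal levels. The controls of Hnrnpu were uneven too, at 289 and 486 CPM. Its estimate became -0.64 when control replicate 1 was dropped (adjusted p = 4.2e-05) and 0.11 when control replicate 2 was dropped. Hnrnpk passed when control replicate 2 was dropped (0.40, adjusted p = 0.0226).

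Among the 9 kinases that phosphorylate SR proteins, 1 rose and 8 did not pass (11.1% rose, beside 7.39% of all tested genes). Srpk3, the striated muscle member, stood at 15.0 and 13.8 CPM in the controls and at 28.3 and 28.2 CPM with PE, so the groups were far apart. Srpk3 rose by 0.97 ± 0.17 on the log2 scale (adjusted p = 0.00376). Of 32 genes of the core spliceosome, 5 had an unadjusted p under 0.05, beside 28.8% of all tested genes. DESeq2 called 3 of them, beside 17% of the genes it tested. In edgeR 2 rose past the threshold, or 6.25%, beside 7.39% of all tested genes. They were Dhx15 (0.66 ± 0.16, adjusted p = 0.0212), an RNA helicase of spliceosome disassembly, and Snrpa1 (0.64 ± 0.18, adjusted p = 0.0353), of the U2 snRNP. Both calls were lost when PE replicate 1 was dropped (adjusted p = 0.440 and 0.428), and likewise for PE replicate 2 (adjusted p = 0.182 and 0.230). The 25 other tested factors of tissue-regulated splicing held 1 gene that rose and 1 that fell (8%, beside 15.7% of all tested genes). Their most abundant members, Rbpms and Rbm5, were at -0.12 ± 0.16 and -0.22 ± 0.16. Over these classes and the paralogs together, 6 of 105 genes passed the threshold, or 5.71%, beside the 15.7% of all tested genes. The 95% interval lay inside a 2-fold change in either direction for 88 of the 105, beside 62.8% of all tested genes. No test compared these genes with other genes.

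**Figure D5:**
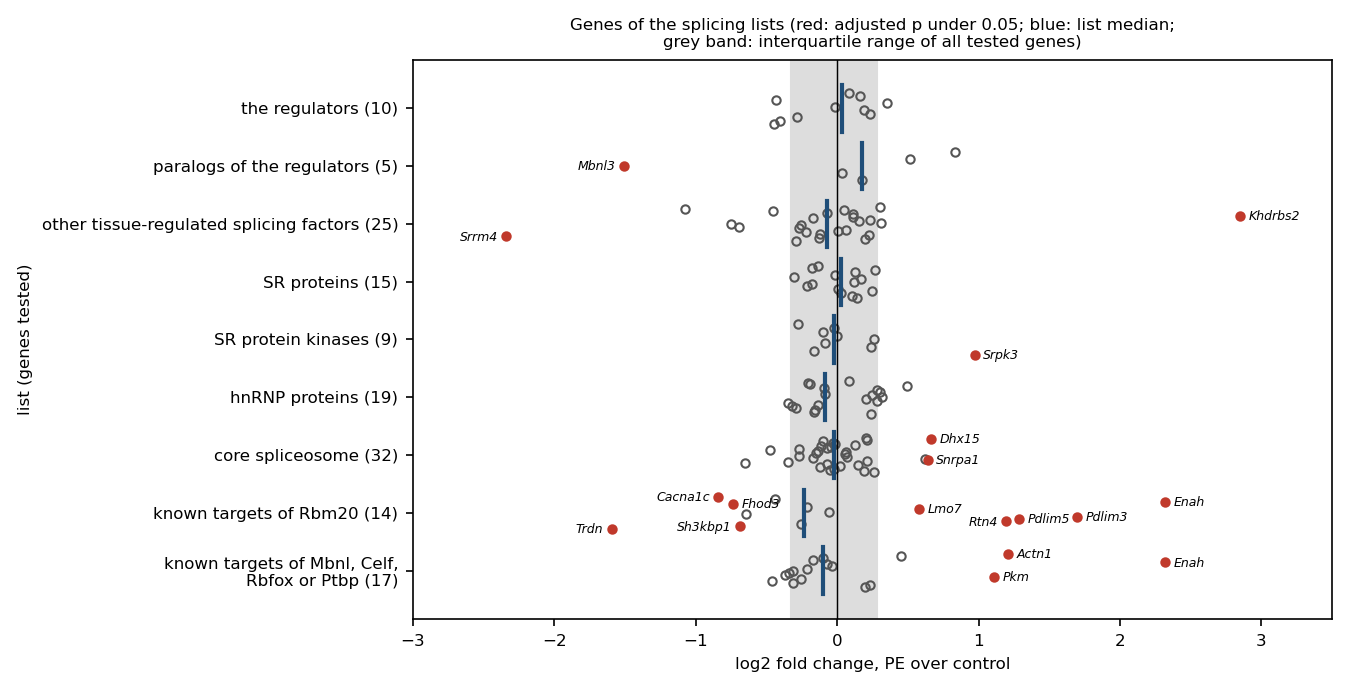
Log2 fold change (PE over control, horizontal axis) of every tested gene in each splicing list, with the number tested in parentheses. Filled red points passed an adjusted p of 0.05, blue bars are list medians, and the grey band holds the interquartile range of all tested genes. The regulators, SR proteins and hnRNP proteins hold no red point, and 9 of 14 known Rbm20 targets are red, where 15.7% of all tested genes passed. The lists were not tested against each other.

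Transcripts that these factors are known to splice were followed by their gene totals. Of 14 tested Rbm20 targets, 5 rose, 4 fell and 5 did not pass (64.3% changed, beside 15.7% of all tested genes, or 7.39% higher and 8.3% lower). No test compared this list with other genes. Enah, an actin regulator, went from 198 and 219.9 CPM to 989 and 1099.9 CPM and rose by 2.32 ± 0.17 (adjusted p = 2.88e-05). The LIM-domain genes Pdlim3 and Pdlim5, of the Z-disc, rose by 1.70 ± 0.16 and 1.29 ± 0.16 (adjusted p = 9.77e-05 and 0.000504). Trdn, the triadin of the calcium release complex, fell by 1.59 ± 0.32 (adjusted p = 0.00688). Its controls were uneven, at 60.1 and 136.8 CPM, and its estimate shrank to -0.88 when control replicate 2 was dropped (adjusted p = 3.0e-07). Over the 14 targets the median was -0.24. Cacna1c, Ldb3, Camk2d and Ryr2 are named as well-known targets after their values were seen. Cacna1c, the L-type calcium channel gene, fell by 0.84 ± 0.16 (adjusted p = 0.00600), a call lost with PE replicate 1 or 2 dropped (adjusted p = 0.275 and 0.0927). Ldb3, Camk2d and Ryr2 were at -0.21 ± 0.17, -0.44 ± 0.16 and -0.26 ± 0.17 and did not pass (adjusted p = 0.464, 0.0995 and 0.368). Camk2d passed when control replicate 1 was dropped (-0.55, adjusted p = 0.00132). Ttn, also listed as a target, was not found by name among the genes used here and so was not analysed. These totals cannot show whether exon use changed.

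Of 17 tested transcripts known as targets of MBNL, CELF, RBFOX or PTBP proteins, 3 rose and 14 did not pass (17.6% changed, close to the 15.7% of all tested genes; median -0.10). The 3 were Enah, which both lists hold, Actn1 and Pkm. Actn1, the non-muscle alpha-actinin, rose by 1.21 ± 0.19 (adjusted p = 0.00185). Pkm, the pyruvate kinase gene with exons chosen by PTBP1, went from 905 and 605 CPM to 1556 and 1710.4 CPM and rose by 1.11 ± 0.21 (adjusted p = 0.00575).

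Some of the regulators are expressed in more than 1 cell type, and in bulk cultures fewer cells of a type and less RNA per cell cannot be told apart. Of the 10 cardiomyocyte markers, 6 had negative estimates (median -0.27), and 30% changed, beside 15.7% of all tested genes. At an unadjusted p under 0.05 were 6, beside 28.8%, and DESeq2 called 5, beside 17% of the genes it tested. All 10 were detected, and they summed to 15026 and 15935 CPM in the controls and 15353 and 16577 CPM with PE. Without Myl3, the most abundant of them, they summed to 12631 and 14314 CPM against 11873 and 12681 CPM. Of them 2 rose, among them Myl3 (0.88 ± 0.22, adjusted p = 0.0205, but 0.127 without PE replicate 2), and Mb fell by 1.35 ± 0.18. The summed fibroblast markers were 18178 and 16289 CPM in the controls against 10096 and 10008 CPM with PE. Without Col3a1, the most abundant of them, the sums were 10337 and 10213 CPM against 7493 and 7165 CPM. Of the 9 tested, 2 fell (22.2%, beside 8.3% of all tested genes), Col3a1 and Pdgfra, by 1.35 ± 0.20 and 0.67 ± 0.17. The other 7 did not pass, and 4 of these had positive estimates, the highest at 0.65. At an unadjusted p under 0.05 were 6 of the 9, beside 28.8% of all tested genes. DESeq2 called 4, beside 17% of the genes it tested. In 5 of the 9 both PE libraries lay below both controls, as in 28.1% of all tested genes. Dropping PE replicate 1 or 2 ended the call of Pdgfra (adjusted p = 0.194 and 0.525).

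Endothelial markers summed to 245 and 241 CPM against 168 and 176 CPM, with 6 lower and 1 higher of 9 tested. This was 77.8%, beside 15.7% of all tested genes (7.39% higher and 8.3% lower). Emcn fell by 1.54 ± 0.27 and Flt1 rose by 1.15 ± 0.17. Macrophage and leukocyte markers summed to 343 and 388 CPM against 256 and 229.9 CPM. All 10 had negative estimates (median -0.57). In 9 of them both PE libraries lay below both controls, as in 28.1% of all tested genes. Past the threshold were 3 of 10, all lower (30%, beside 8.3% of all tested genes), among them Mrc1 at -0.93 ± 0.19 and Csf1r at -0.77 ± 0.18. Both calls ended without PE replicate 1 (adjusted p = 0.0982 and 0.234), and also without the other PE library (adjusted p = 0.0957 and 0.223). Smooth muscle and pericyte markers summed to 1855 and 1361 CPM against 1415 and 1677 CPM, and 40% changed, beside 15.7% of all tested genes. Of the 10, 8 had negative estimates (median -0.41). Of these genes, Abcc9 (-1.10 ± 0.16) and Tagln (-0.80 ± 0.21), both named after their values were seen, passed as lower, and the 2 genes with positive estimates, Cnn1 (4.97 ± 0.20) and Cspg4 (1.20 ± 0.23), passed as higher. Tagln was at -0.44 with control replicate 1 dropped and lost its call with either PE library dropped (adjusted p = 0.258 and 0.155). Nerve and Schwann cell markers summed to 49.5 and 35.8 CPM against 56.6 and 55.7 CPM, and none of 6 tested passed in edgeR, with 2 at an unadjusted p under 0.05 and 1 in DESeq2. The most abundant were Uchl1 (0.82 ± 0.26) and Tubb3 (0.09 ± 0.22), and Uchl1 was the gene that DESeq2 called (adjusted p = 0.0145). In edgeR it was at 1.33 when control replicate 1 was dropped and at 0.46 when control replicate 2 was dropped, and passed both times. No marker of the 6 lists that was found by name was at 0 in every library. The endothelial marker Pecam1 was not found by name, so 9 of 10 were measured in that list. The part of these shifts in the levels of the regulators was not tested.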

How the data were processed

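The authors deposited raw counts per gene for each of the 4 libraries. Cutadapt 2.0, STAR 2.4.2a, featureCounts 1.6.4 and the build Rnor_6.0 are named in the submitters' processing notes; how counting treated strand is not given in the sources used here, so reads of overlapping or antisense genes are uncertain. The authors' deposited comparison table holds a mean normalized signal, log2 fold changes, a test score and p-values per gene, per the file headers, and gave the gene names. Genome coordinates were not used.

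Counts were fitted with edgeR 4.0.16 (limma 3.58.1, R 4.3.3): TMM factors, the default expression filter (minimum count 10, minimum total 15), quasi-likelihood F test of PE against control on all 4 libraries, with Benjamini-Hochberg adjustment over 15257 genes. Intervals use the test's standard error and degrees of freedom. The fit was tested on simulated counts. Replicates differed by more than counting noise (chi-square per degree of freedom 133 and 19.8). Alternatives were DESeq2 1.42.0, other scalings and filters, mitochondrial genes left out, a replicate block and each library left out.

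The regulators and all gene lists were chosen with earlier results of these data known. Named genes were the regulators, Nppa, Nppb, and from each list the largest changes among changed genes whose log2 CPM averaged 1 or more (up to 4, or 2 of markers), or else the 2 most abundant. Genes outside this rule are said to be chosen after their values were seen. Protein and genome sequences were not used here.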

Additional observations from a re-analysis of the deposited data

How the results depend on the processing

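None of the 10 regulators passed with DESeq2, RLE, upper-quartile or unscaled library sizes, no filter, a filter at a mean CPM of 1, mitochondrial genes left out, or a replicate block. With 1 library left out, 0 to 1 passed as higher and 0 to 3 as lower, while the count over all genes ran from 604 to 2398 higher and 601 to 2389 lower. Leaving out 1 library reversed signs for Rbfox1 (-0.0091 to 0.42), Ptbp1 (-0.14 to 0.12), Hnrnpu (-0.64 to 0.11) and Tubb3 (-0.15 to 0.39), and for the ratio differences of Rbfox1/Rbfox2 (-0.38 to 0.30), Celf1/Celf2 (-0.17 to 0.0023) and Rbm24/Rbm38 (-0.13 to 0.24).

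Replicate numbers are shared between groups but no label ties them to a culture. The replicate block gave 913 higher and 1051 lower genes over all tested, and 0 regulators. With it Dhx15, Snrpa1, Pdgfra and Csf1r did not pass (adjusted p = 0.0948, 0.131, 0.0735 and 0.0526) and Uchl1 did (adjusted p = 0.0182). Deviations of same-numbered libraries from their group means were weakly and negatively correlated across genes (-0.23). A crossed replicate block, added after seeing the data, gave 2270 higher and 2407 lower genes, or 30.7% of tested genes. With it 1 regulator was higher and 3 were lower, or 4 of 10. Because that pairing was chosen from these same data, its calls are no independent support for a response. Depth limits Rbfox1 most, at 152 to 201 counts.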

Other observations

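In the list of other tissue-regulated splicing factors, the 2 genes past the threshold were of low abundance and are named after their values were seen. Khdrbs2, which encodes a STAR-family splicing factor best known from neurons, had 16 and 11 counts in the controls and 120 and 85 with PE, or 0.270 ± 0.040 CPM and 1.97 ± 0.24 CPM (SD, n = 2). Both PE libraries were above both controls, and Khdrbs2 rose by 2.85 ± 0.38 on the log2 scale (edgeR adjusted p = 0.00074). Srrm4, which encodes an activator of neuronal microexons, had 85 and 84 counts in the controls and 22 and 13 with PE. Both PE libraries were below both controls, and Srrm4 fell by 2.34 ± 0.39 (edgeR adjusted p = 0.00262).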
